A study of Mus musculus with 3 samples.

Results

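The 10 genes described belong to endothelial cell-cell junctions and were followed in single-cell RNA from the mouse aortic arch, chosen by symbol from the annotated gene list: the adherens junction gene Cdh5, the tight junction genes Cldn5, Ocln, Esam, F11r, Jam2 and Tjp1, and the connexin genes Gja1, Gja4 and Gja5. All 10 were among the 32285 genes counted in each of the 3 libraries. The cells came from the intima (the innermost layer) along the lesser curvature of the arch, in wildtype C57BL/6J mice aged 12 to 13 weeks. There was 1 LPS library, from mice that received 30 µg ultrapure lipopolysaccharide (LPS), a bacterial cell wall product sensed by Toll-like receptors, by intravenous injection 18 h before harvest. The other 2 libraries came from untreated control mice. Every library, LPS and control, combined 5 to 10 male and female mice, was perfused and dissected with the transcription blocker actinomycin D, and was digested briefly with collagenase D and DNase I. Control replicates are numbered in record order, which pairs nothing.

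Endothelial cells are held to their neighbours by adherens junctions, where cadherins bind across the cleft, and by tight junctions, where claudins, occludin and immunoglobulin-type adhesion molecules seal the space and are tied to actin by scaffold proteins. Gap junctions are channels of connexins that pass ions and small molecules from cell to cell. In arteries the endothelium is known mainly for Gja4 and Gja5, and Gja1 is known there at sites of disturbed flow. During inflammation junctions loosen, and plasma and leukocytes cross the vessel wall.

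The sequence just before the transcription start is shown for the members whose levels or promoter letters are taken up in the results. RefSeq promoter windows (GRCm38.p6, 250 bases before to 50 after each start) matched 7 of the 10 members, in 8 windows, without Cdh5, Esam and Jam2. In all, 10 motifs were searched on both strands: AP-1 TGANTCA, CRE TGACGTCA, kappaB (by name), GAS TTCNNNGAA, ISRE core (by name), ETS ACTTCCGG, CACCC box CCACACCC, E-box CACGTG, SOX AACAATG and the TATA box TATAAA. Only AP-1 matched in any of the 8 windows, once in Gja1, 19 to 13 bases before the start, and once in F11r, 109 to 103 bases before it. It reads the same pattern on both strands. AP-1 letters occur in 7.81% of all 32851 promoter windows of that table, and the other motifs in 1.79% (CRE) to 13.6% (TATA box). The 250 bases before the start follow, 5′ to 3′ on the gene's strand, which is the plus strand for each. Capitals mark the AP-1 match, and Cldn5 had none.
Gja1 (chr10:56377050-56377299, +): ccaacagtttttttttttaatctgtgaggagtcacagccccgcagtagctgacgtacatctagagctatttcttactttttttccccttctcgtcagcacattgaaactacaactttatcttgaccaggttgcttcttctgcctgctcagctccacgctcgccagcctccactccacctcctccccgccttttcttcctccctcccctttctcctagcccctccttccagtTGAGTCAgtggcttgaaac
F11r (chr1:171437311-171437560, +): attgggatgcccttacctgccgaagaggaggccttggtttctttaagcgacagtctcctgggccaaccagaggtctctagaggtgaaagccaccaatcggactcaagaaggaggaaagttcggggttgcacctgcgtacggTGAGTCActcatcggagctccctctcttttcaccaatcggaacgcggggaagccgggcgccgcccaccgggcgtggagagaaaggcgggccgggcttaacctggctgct
Cldn5 (chr16:18776597-18776846, +): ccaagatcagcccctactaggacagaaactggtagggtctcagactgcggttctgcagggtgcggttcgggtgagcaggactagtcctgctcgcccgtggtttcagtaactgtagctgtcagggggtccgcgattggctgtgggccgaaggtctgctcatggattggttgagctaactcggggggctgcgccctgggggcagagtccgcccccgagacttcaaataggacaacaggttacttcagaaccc

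The LPS library held 21864072 UMIs (unique molecular identifiers, which count captured molecules) in 6000 barcodes, and control replicates 1 and 2 held 1269 and 4813 barcodes with 4940996 and 20069697 UMIs. After filters 5156, 431 and 2697 barcodes remained, and 1 to 6 barcodes were shared between pairs of libraries. Haemoglobin took 25.2% of UMIs in the LPS library, 44.0% in control 1 and 7.91% in control 2, and the ribosomal-like transcript Gm42418 took 28.6%, 9.81% and 1.59%. Cells were named from marker genes without use of the members, which gave 190 endothelial-like cells in the LPS library, 73 in control 1 and 149 in control 2. All 16 endothelial markers were detected in each of those groups. Median UMIs per endothelial-like cell were 4927.5, 1317 and 2376, so the LPS cells were the deepest. LPS and control cells fell almost entirely into different sub-clusters, 188 of 190 LPS cells into A and B and all but 1 of the control cells into C, D and E. The effect of LPS and that of sub-cluster membership therefore cannot be told apart.

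Cldn5 fell and Gja1 rose in LPS endothelial-like cells. These were the calls among the 10 members: 1 higher, where 7.15% of the 8963 genes tested were called higher, and 1 lower, where 7.05% were called lower. Levels here are CPM, summed UMIs scaled to a common library total with TMM factors. Tests are edgeR's quasi-likelihood test, Benjamini-Hochberg adjusted over all genes tested. In simulated endothelial-like sums that test recovered 5 of 67 genes changed by 1 on the log2 scale. A gene not called is therefore not shown to be unchanged. With 1 LPS library against 2 controls, 1 residual degree of freedom is left, so the spread between controls stands for that of LPS too. That spread is drawn toward the trend of all genes, so a gene's own gap between controls weighs little in its p-value. Gja1, with 55.3 and 18.9 CPM in controls, had an SE of 0.45, and Cdh5, with 368 and 388 CPM, an SE of 0.42. SE here is the size of the log2 fold change over the square root of the test's F statistic. It therefore carries the same shared spread and is no separate estimate. The median log2 fold change of the members was 0.37, against -0.02 over all genes tested. LPS values lay outside both controls for 8 of 10 members, where 74% of all genes did, above them for 6 members, where 37.8% of all genes were, and below them for 2, where 36.2% were.

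**Figure D1:**
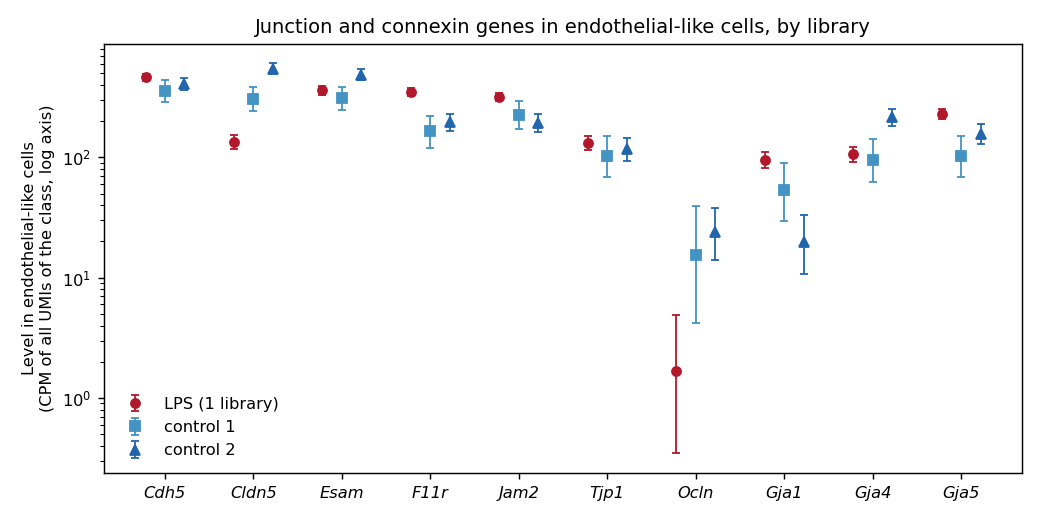
Level of each member in endothelial-like cells, in CPM of all UMIs of the class on a log axis, with exact Poisson 95% intervals that cover counting error only. Red circles are the LPS library and blue symbols the controls; Cldn5 and Ocln sit below both controls in LPS, and Gja1, F11r and Gja5 above both.

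Cdh5 encodes VE-cadherin, the endothelial cadherin that forms adherens junctions, and its level was 496 CPM in LPS, against 368 and 388 CPM in controls 1 and 2. LPS lay above both controls, but the change did not pass the test (log2 fold change 0.39 ± 0.42 SE, edgeR adjusted p = 0.63). Cdh5 is at mouse chromosome 8, 104101625 to 104144511, plus strand (GRCm38).

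Cldn5 encodes claudin-5, the main claudin of endothelial tight junctions. The gene lies on chromosome 16, 18776847 to 18778262, plus strand (GRCm38). It had 143 CPM in LPS endothelial-like cells, against 316 and 523 CPM in controls 1 and 2 (240 UMIs, against 80 and 388). LPS lay below both controls (log2 fold change -1.57 ± 0.45, edgeR adjusted p = 0.00683). Within a library, Cldn5 UMIs per Cdh5 UMI were 0.289 in LPS (95% interval 0.249 to 0.334), against 0.860 (0.630 to 1.17) in control 1 and 1.35 (1.15 to 1.57) in control 2, a ratio that no scaling touches. Single controls gave -1.14 (control 1 alone) and -1.87 (control 2 alone), values with no test. With free RNA subtracted from all genes the value was -1.54, adjusted p = 0.21.

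Cldn5 was also detected in a smaller share of LPS cells. After thinning each cell to 1000 UMIs, 5.79% of LPS endothelial-like cells had a Cldn5 UMI (11 of 190), against 19.6% in control 1 (10 of 51, 22 shallower cells left out) and 20.1% in control 2 (30 of 149). Without thinning the shares were 29.5%, 19.2% and 39.6%, where the LPS cells were deeper. Lymphoid-like cells, which should lack the gene and stand for free RNA, showed 0 of 110 (exact upper limit 3.30%) in LPS, 1.21% in control 1 and 3.76% in control 2 after thinning.

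Among the other tight junction members none passed the test. F11r encodes JAM-A, an adhesion molecule of leukocytes, platelets and endothelium, and had 373 CPM in LPS, against 170 and 187 CPM in controls. LPS lay above both, with a log2 fold change of 1.05 ± 0.41 and an edgeR adjusted p of 0.0678. With possible doublets left out, which kept 71 of 190 LPS cells and 42 and 62 control cells, the adjusted p was 0.0466 at 1.09, the single alternative in which it passed. Jam2 encodes JAM-B, which binds JAM-C on the neighbouring cell, and had 339 CPM in LPS, against 233 and 186 CPM (0.71 ± 0.42, edgeR adjusted p = 0.29).

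Esam encodes an endothelial adhesion molecule of the same immunoglobulin type, and its 385 CPM in LPS lay between the controls at 320 and 465 CPM (-0.04 ± 0.42, edgeR adjusted p = 0.97). Tjp1 encodes ZO-1, the scaffold between junction proteins and actin, and had 140 CPM in LPS, against 107 and 112 CPM (0.35 ± 0.42, adjusted p = 0.67). Ocln encodes occludin, a membrane-spanning tight junction protein, and had 3 UMIs in LPS, against 4 and 17 UMIs in the controls (1.79 CPM, against 15.8 and 22.9 CPM). From those UMIs Ocln was 12.9-fold lower in LPS (95% counting interval 3.84 to 67.4), and the fit gave -3.40 ± 1.34 with an edgeR adjusted p of 0.0705, which passed only with no filter on low counts (adjusted p = 0.0154).

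Gja1 encodes Cx43 and lies on chromosome 10, 56377330 to 56402513, plus strand (GRCm38). Its level was 102 CPM in LPS, against 55.3 and 18.9 CPM in controls 1 and 2 (171 UMIs, against 14 and 14). LPS lay above both controls (log2 fold change 1.71 ± 0.45, edgeR adjusted p = 0.00233). Control 2 set most of that size: against control 2 alone the value was 2.43, and against control 1 alone 0.88. In control 2 the free RNA estimated from lymphoid-like cells of the library came to 94.3% of the Gja1 UMIs of endothelial-like cells. That estimate takes lymphoid-like cells to make no Gja1 and to hold as much free RNA per cell, which was not tested. In LPS it came to 3.03%, and in control 1 to 9.26%, each estimated from only 3 Gja1 UMIs of lymphoid-like cells.

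DESeq2 did not call Gja1 (1.54, adjusted p = 0.57), nor did the fit with free RNA subtracted from every gene (2.22, adjusted p = 0.37, where the median of all genes moved to 0.71). In the deeper sub-clusters alone, those with a median of at least 3000 UMIs, it was called (2.40, edgeR adjusted p = 8.00e-04). That fit held 188 LPS cells, 17 of control 1 and 50 of control 2. It left out sub-cluster E, which held 5 of the 14 Gja1 UMIs of control 1 and 11 of the 14 of control 2. The size of the Gja1 change moved with the choice of cells and with free RNA. It was 3.73 with possible doublets left out, 5.04 under the first naming tried and 2.55 with free RNA taken from the members alone. After thinning to 1000 UMIs, 6.84% of LPS endothelial-like cells had a Gja1 UMI (95% interval 3.69% to 11.4%), against 1.96% (0.0496% to 10.4%) in control 1 and 3.36% (1.10% to 7.66%) in control 2. These intervals overlap. Without thinning the shares were 30.0% in LPS, where cells were deepest, against 6.85% and 8.05% in controls 1 and 2. Lymphoid-like cells, with median depths of 4890.5, 3875 and 4120 UMIs, showed 2.73%, 1.78% and 8.08% without thinning.

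**Figure D2:**
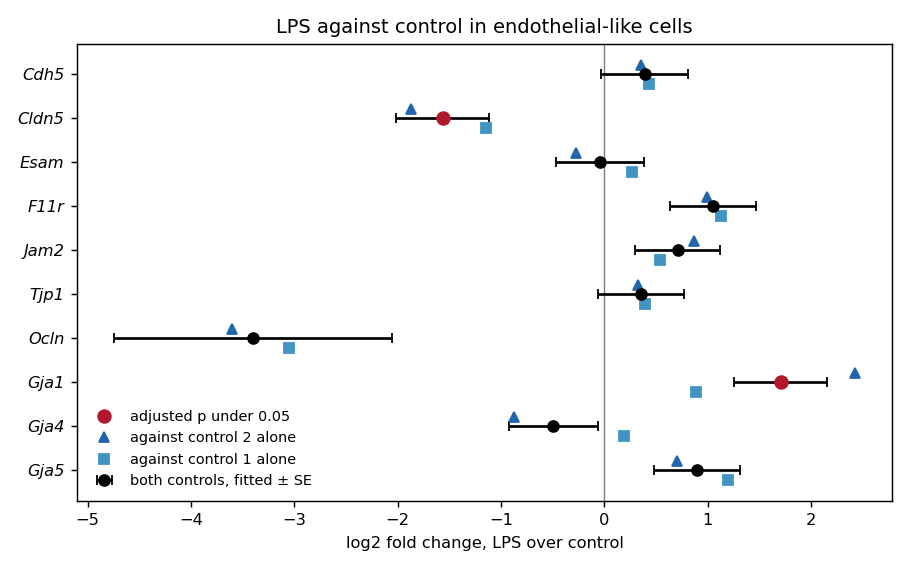
Log2 fold change, LPS over control, of each member in endothelial-like cells. Black points with bars are the fit on both controls ± SE, red points have an adjusted p under 0.05, triangles are values against control 2 alone and squares against control 1 alone; Gja4 and Esam change sign between the controls.

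Gja5 encodes Cx40 and Gja4 encodes Cx37, the arterial connexins. Gja5 had 245 CPM in LPS, against 107 and 151 CPM (0.90 ± 0.42, edgeR adjusted p = 0.145), above both controls. Gja4 had 113 CPM in LPS, against 98.8 and 206 CPM, so LPS lay between them (-0.49 ± 0.43, adjusted p = 0.53), and the sign differed between the controls (0.19 against control 1 alone, -0.87 against control 2 alone). Gja5 UMIs per Gja4 UMI were 2.17 in LPS (95% interval 1.83 to 2.60), against 1.08 (0.603 to 1.94) in control 1 and 0.732 (0.568 to 0.940) in control 2. Of the UMIs of the 3 connexins, Gja5 held 53.3% in LPS, against 40.9% and 40.1%, Gja4 held 24.5%, against 37.9% and 54.8%, and Gja1 held 22.2%, against 21.2% and 5.02%. The Gja1 share in LPS and in control 1 did not differ beyond the counting intervals (19.3% to 25.3% in LPS, 12.1% to 33.0% in control 1).

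Cells with Gja1 and Gja5 together were seen in LPS alone among those thinned to 4000 UMIs. There were 14 of 121 such cells (11.6%, 95% interval 6.47% to 18.7%) in LPS, against 0 of 19 in control 1 (exact upper limit 17.6%) and 0 of 52 in control 2 (exact upper limit 6.85%). Both limits overlap the LPS interval. Gja1 itself was in 30 of the 121 LPS cells, against 1 of 19 and 2 of 52, so few control cells could hold the pair. Gja4 and Gja5 together were in 12.4% of LPS cells, against 5.26% and 19.2%. Any connexin was found in 73.6% of LPS cells, against 52.6% and 76.9%. Cells of a library are not replicates, so these shares carry counting intervals and no test.

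**Figure D3:**
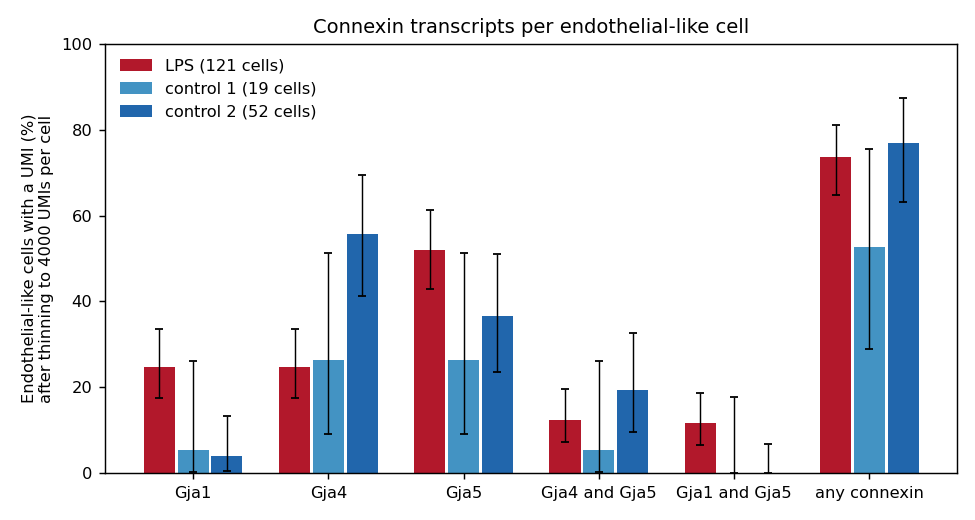
Share of endothelial-like cells with a UMI of each connexin gene or pair, after thinning to 4000 UMIs per cell, in LPS (red, 121 cells), control 1 (light blue, 19 cells) and control 2 (dark blue, 52 cells), with exact binomial 95% intervals. Gja1 was detected in 24.8% of LPS cells, against 5.26% and 3.85%, and Gja4 in 24.8%, against 26.3% and 55.8%.

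The members varied between sub-clusters of endothelial-like cells. LPS cells formed sub-cluster A (85 cells, median 11730 UMIs), led by Lcn2 and Tmem252, and sub-cluster B (104 cells, median 4014 UMIs), led by Lcn2 and Csf3. Control cells formed C (32 cells, led by Palmd and Klk10), D (34 cells, led by Bmp6 and Gkn3) and the shallow E (157 cells, median 1691 UMIs). E held most control cells of the class, 56 of 73 in control 1 and 99 of 149 in control 2. Its endothelial naming score was 2.33, near the limit of 2.0, and fibroblast came next at 1.535. Under the first naming tried, only 16 and 51 cells of controls 1 and 2 were endothelial-like. The members were left out of the genes used to cluster, and these levels are a description in CPM of all UMIs with exact Poisson intervals. Cdh5 was 533 and 299 CPM in A and B, against 437, 562 and 159 CPM in C, D and E. Esam was 432 and 186 CPM, against 516, 538 and 243 CPM. Both were thus lower in B than in A, and lower in E than in C and D. Gm42418 took 10.1% and 19.8% of UMIs in A and B, against 4.9%, 3.3% and 9.2% in C, D and E. Whether depth or RNA quality has a part in the levels was not tested.

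Cldn5 stood at 173 CPM in A and 42.7 CPM in B, against 1067 CPM in C, 196 CPM in D and 165 CPM in E. Its interval in A (151 to 198 CPM) overlapped those of D (152 to 249 CPM) and E (123 to 217 CPM). The C value pooled 548 CPM in control 1 (8 cells) and 1284 CPM in control 2 (24 cells), both above A, and the E value pooled 105 and 193 CPM. Klf2, a flow-responsive transcription factor, was 666 and 295 CPM in A and B, against 1180, 377 and 466 CPM in C, D and E. Gja1 was 112 CPM in A and 54.4 CPM in B, against 36.7 CPM in C, no UMI in D (exact upper limit 10.96 CPM) and 51.8 CPM in E. Its value in C was 93.1 CPM in control 1 (42.6 to 177 CPM), which overlaps A (94.8 to 133 CPM), and 13.0 CPM in control 2. Gja5 was 264 and 140 CPM in A and B, against 141, 214 and 77.7 CPM in C, D and E, where control 1 alone had 31.0, 295 and 23.3 CPM. Jam2 was 385 and 153 CPM in A and B, against 373, 143 and 87.5 CPM in C, D and E, so the intervals of A and C overlapped in Jam2 (351 to 420 and 310 to 445 CPM) and not in Cldn5. In E, Jam2 was 46.6 CPM in control 1 and 101 CPM in control 2.

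**Figure D4:**
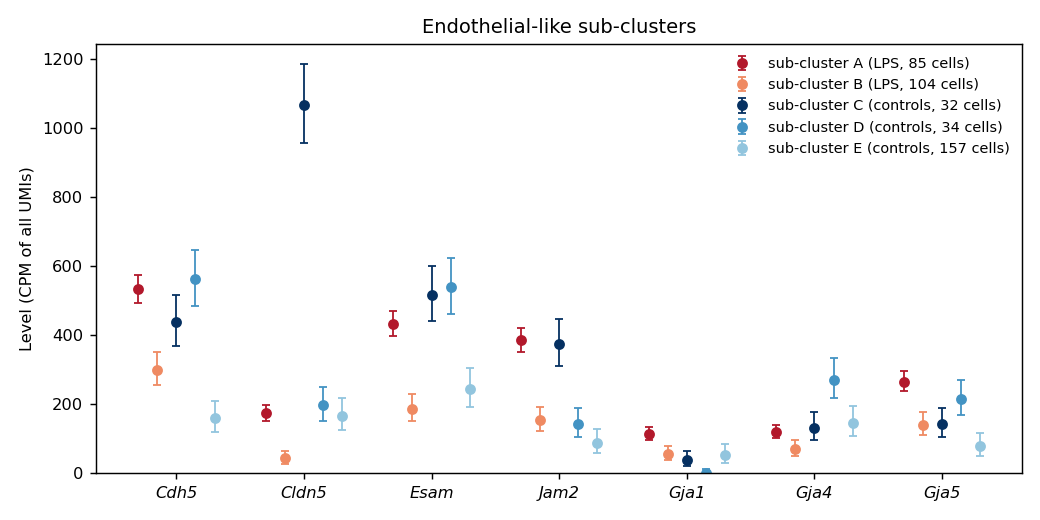
Level in CPM of all UMIs of 7 members in the 5 endothelial-like sub-clusters, with exact Poisson 95% intervals. Red and orange are the LPS sub-clusters A and B, blues the control sub-clusters C, D and E; Cldn5 reaches 1067 CPM in C, pooled over the controls, and is between 42.7 and 196 CPM in the other 4.

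Across cell classes, 6 of 10 members had an endothelial-like level, in each library, above every other class and library of at least 20 cells (19 sums compared, in CPM of all UMIs). These were Cdh5, Cldn5, Esam, Jam2, Gja4 and Gja5. The members were chosen as endothelial junction genes, and how many of all genes meet this rule was not counted. Cdh5 was 465 CPM in LPS and 356 and 405 CPM in controls, and its highest value elsewhere was 50.5 CPM, in smooth muscle-like cells of control 2. Gja4 was 106 CPM in LPS and 95.8 and 215 CPM in controls, with at most 58.9 CPM elsewhere, again in smooth muscle-like cells of control 2. In order, Gja4 was highest in endothelial-like cells, and no order among the other classes went beyond their spread. Smooth muscle-like cells had 58.9 CPM in control 2 and no UMI in control 1, and the remaining classes averaged 7.18 CPM or less.

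F11r, Tjp1 and Gja1 were not limited to endothelial-like cells. Mesothelial-like cells of the LPS library (62 cells), the lining of the pericardial or pleural surface, had 238 CPM of F11r, 155 CPM of Tjp1 and 158 CPM of Gja1. Mesothelial-like cells of the controls numbered 16 and 14 and are not compared. Gja1 was next highest in fibroblast-like cells, at a mean of 71.7 CPM over libraries (45.5 to 91.5 CPM), a range that overlaps that of endothelial-like cells (19.7 to 95.7 CPM). Ocln was at most 5.05 CPM outside endothelial-like cells.

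**Figure D5:**
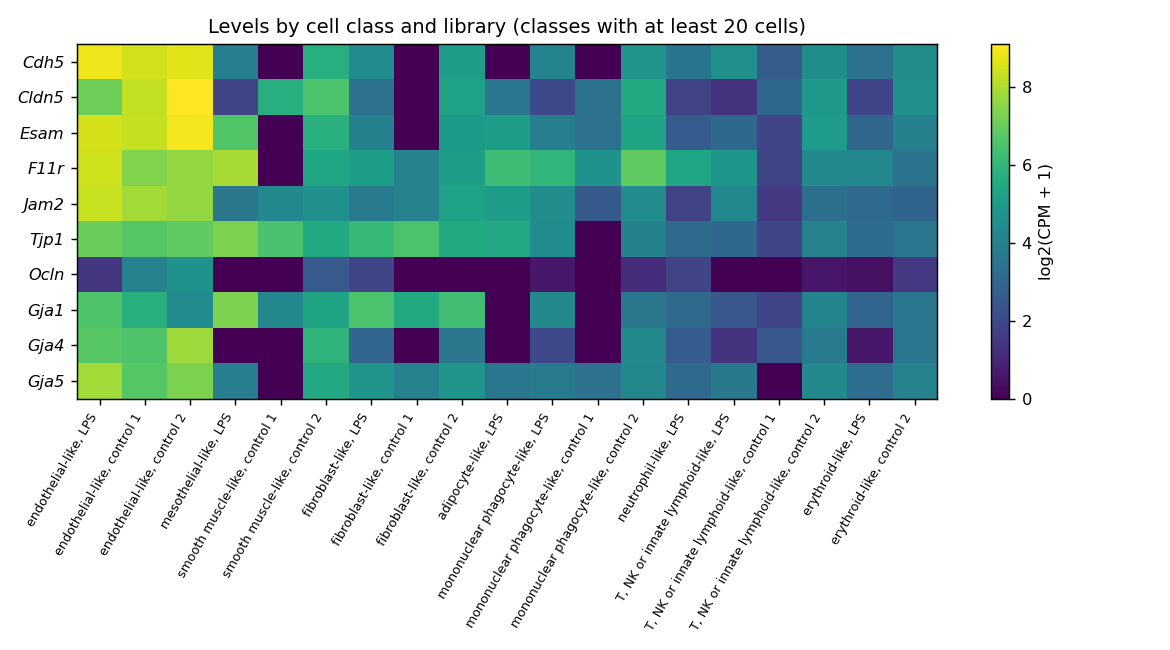
Level of each member, as log2(CPM + 1) of all UMIs, by cell class and library for classes of at least 20 cells. Within a class the LPS library stands left of the controls; endothelial-like columns are brightest for Cdh5, Esam and Jam2, and mesothelial-like LPS cells are bright for F11r, Tjp1 and Gja1.

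Over those 19 sums, the genes most like Cdh5 by Pearson correlation of log2(CPM + 5) were Nos3 (0.98), Erg (0.95) and Gata2 (0.95), of 10892 genes. Gja4 was most like Pkn3 (0.96), Sox18 (0.96) and Tie1 (0.94), Gja5 most like Bmp4, Plxna2 and Ece1 (0.92 each), and Gja1 most like Sorbs3 (0.91), Fkbp10 (0.89) and P3h1 (0.89). Erg and Tie1 were among the naming markers, and sums of one library share its depth and free RNA.

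In other classes no member was called. In fibroblast-like cells 4 members were tested and 0 called by edgeR (0 at an unadjusted p under 0.05, 0 by DESeq2), with 22 cells in control 1, where 7.84% of 5320 genes were called higher and 4.89% lower. Gja1 there had 117 CPM in LPS, against 46.9 and 73.5 CPM (0.81 ± 0.52, edgeR adjusted p = 0.37), above both controls. In phagocyte-like cells 9 members were tested and 0 called by edgeR (1 at an unadjusted p under 0.05, 0 by DESeq2), where 1.22% of 8904 genes were called, 1.01% higher and 0.213% lower. In lymphoid-like cells 9 were tested and 0 called by edgeR (1 at an unadjusted p under 0.05, 0 by DESeq2), where 0% of 9782 genes were called, with 715 higher and 452 lower at an unadjusted p under 0.05, and 124 higher and 13 lower by DESeq2.

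The member below 0.05 unadjusted in phagocyte-like and lymphoid-like cells was Cldn5 in both. It had 3.19 CPM in LPS phagocyte-like cells, against 10.9 and 40.6 CPM, and 1.60 CPM in LPS lymphoid-like cells, against 8.03 and 25.9 CPM. Neither type is known for Cldn5, and LPS lay below both controls in each. Whether the LPS response differed between endothelial-like and fibroblast-like cells was examined with an interaction term, blocking on library. Of the 10 members 0 were called by edgeR (1, Jam2, at an unadjusted p under 0.05), where 0.734% of 8723 genes were called. Gja1 gave 1.11 ± 0.67 (endothelial-like minus fibroblast-like, log2), edgeR adjusted p = 1.

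Other junction genes were mostly not called in endothelial-like cells. Of 13 other adherens junction proteins 11 were tested and 1 fell, Lmo7, an actin-linked partner of the nectin system. Lmo7 had 16.7 CPM in LPS, against 75.1 and 56.6 CPM (-1.92 ± 0.50, edgeR adjusted p = 0.00179). DESeq2 did not call it (adjusted p = 0.31). Of 26 tight junction proteins 11 were tested and 0 called by edgeR, with Pard3 (1.11, adjusted p = 0.0709) and Marveld1 (-1.04, adjusted p = 0.10) closest. Of 20 other connexins and pannexins Gjc1 alone was tested (0.22 ± 0.45, adjusted p = 0.83).

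Of 14 other endothelial contact proteins 11 were tested, 2 rose and 3 fell. Icam2, a leukocyte ligand of resting endothelium, fell to 177 CPM in LPS, against 597 and 461 CPM (-1.57 ± 0.46, edgeR adjusted p = 0.00696), and the tetraspanin Cd151 fell (-1.42). Cdh11 fell by 3.63 on the log2 scale, but by 1.12 against control 2 alone and 4.63 against control 1 alone. DESeq2 called neither Cd151 (adjusted p = 0.22) nor Cdh11 (adjusted p = 0.54). Pvr rose (1.55), and the protocadherin Pcdh1 rose by 1.78, by 3.23 against control 2 alone and 0.49 against control 1 alone. Neither rise was called by DESeq2 (adjusted p = 0.82 for Pvr and 0.92 for Pcdh1) or in the deeper sub-clusters (edgeR adjusted p = 0.156 and 0.0885).

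Of 34 junction regulators 28 were tested, 3 rose and 3 fell. S1pr1, the receptor of sphingosine-1-phosphate that strengthens junctions, rose to 829 CPM in LPS, against 340 and 186 CPM (1.68 ± 0.41, edgeR adjusted p = 8.94e-04). Rapgef3, the exchange factor Epac1 for Rap1, rose (140 CPM in LPS, against 35.6 and 49.9 CPM; 1.65), and so did Rasip1, a Rap1 effector (548 CPM, against 285 and 166 CPM; 1.31). None of these 3 rises was called in the deeper sub-clusters (edgeR adjusted p = 0.0639 for S1pr1, 0.0509 for Rapgef3 and 0.110 for Rasip1). DESeq2 called S1pr1 (adjusted p = 0.0240) but neither Rapgef3 (0.30) nor Rasip1 (0.17). Ptprb, the phosphatase that acts on VE-cadherin and Tek, fell to 448 CPM in LPS, against 1913 and 1379 CPM (-1.87 ± 0.46, adjusted p = 8.21e-04), and Tek, the angiopoietin receptor, fell (-1.54). Mylk, the myosin light chain kinase, fell by 1.90 (-2.47 against control 2 alone, -0.38 against control 1 alone), and was not called in the deeper sub-clusters (adjusted p = 0.25) or by DESeq2 (adjusted p = 0.31).

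Genes that mark vessel types were counted in the same fit, where 7.15% of all genes were called higher and 7.05% lower. The lists were chosen with earlier results of these data known. Their counts beside those shares are therefore a description and no test. Of 18 arterial genes 16 were tested, of which 9 fell, 0 rose and 7 were not called. Among those that fell were Gkn3 (23.3 CPM in LPS, against 332 and 545 CPM, log2 fold change -4.24 ± 0.54) and Cytl1 (-3.10). Fbln5 (-4.16, -3.55 against control 1 alone) and Vegfc (-2.65, -1.92 against control 2 alone and -3.40 against control 1 alone) fell too. The 7 arterial genes not called were Notch4 (0.72), Edn1 (0.56), Clu (0.30), Notch1 (0.23), Cxcl12 (0.16), Tm4sf1 (-0.33) and Sema3g (-0.66). Of 8 venous genes 7 were tested and 3 rose, Selp (3.84), Slco2a1 (1.74) and Tmem252 (311-fold by UMIs, 95% interval 85.8 to 2569). In the same list 1, Bgn, fell (-1.36, not called in the deeper sub-clusters, edgeR adjusted p = 0.113). The 3 venous genes not called were Il6st (0.65), Ephb4 (-0.68) and Nr2f2 (-1.08). Of 11 capillary genes 6 were tested and 2 rose, Car4 (at least 33.9-fold, from 0 UMIs over both controls with a floor of 3) and Fabp4 (2.20, 1.46 against control 2 alone and 4.22 against control 1 alone). The 4 capillary genes not called were Aqp1 (0.37), Cd36 (-0.07), Rgcc (-0.43) and Kdr (-1.93). Of 7 lymphatic genes 2 were tested and Lyve1 rose (6.01, 7.59 against control 2 alone and 4.55 against control 1 alone), with 1 not called. Of 9 valve or endocardial genes all were tested, of which 4 were not called and 5 fell. Among those that fell were Nppc (at least 12.3-fold lower), Wnt9b (109-fold by UMIs, interval 18.7 to 4358), Hapln1 (45.1-fold, 11.8 to 383) and Postn (-2.41, -2.94 against control 2 alone and -1.01 against control 1 alone). Whether the makeup of vessel types has a part in the Cldn5 and Gja1 differences was not tested. Over the vessel-type and junction lists, DESeq2 called 13 of the 27 genes that edgeR called and the rule named. Of the vessel-type genes named it did not call Vegfc (DESeq2 adjusted p = 0.13), Fabp4 (0.82), Lyve1 (0.084), Wnt9b (0.090) or Postn (0.13). For Nppc it gave no adjusted p.

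Markers of other cell types also differed in endothelial-like cells. The 10 smooth muscle markers summed to 484 CPM in LPS, against 598 and 4313 CPM in controls 1 and 2, with 10, 8 and 10 detected. The 12 fibroblast markers summed to 1401 CPM, against 1575 and 2467 CPM, with all 12 detected in each. The 6 platelet markers summed to 50.4 CPM in LPS, against 3.83 and 14.1 CPM, with 5, 1 and 2 detected, and Treml1 at 0 in all. The 7 erythroid markers summed to 4796 CPM, against 567 and 25369 CPM. Their part in the Cldn5, Gja1 and Mylk values was not tested.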

How the data were processed

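Droplet single-cell RNA was measured with the 10x 3' v3 kit in 3 libraries, 1 LPS and 2 control, per the labels. The authors deposited raw UMI counts for each gene in each barcode. Cell Ranger 3.1, mm10, R 4.2.1 and Seurat 4.2.0 are named in the submitters' processing notes. How barcodes were selected is not stated in the labels.

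Computed here: 8284 of 12082 barcodes passed a filter (500 or more UMIs, 300 or more genes, mitochondrial share up to 15%) and were clustered without integration (scanpy 1.11.5, leidenalg 0.10.2, target sum 10000, 2000 variable genes, 30 principal components, 15 neighbours, resolution 1.0), then again within clusters of at least 40 cells (resolution 0.5, 20 components). Members and other junction genes were left out of the variable genes, and haemoglobin, mitochondrial and Gm42418 transcripts out of clustering. Sub-clusters were named from markers of 17 classes at a mean log2 excess of 2.0 and 0.5 above the next class, with at least 3 markers. This naming was the second tried, with the limit of 2.0 set after seeing the data; the first is among the alternatives. No doublet caller was run.

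Because cells are not replicates, UMIs were added up by class within each library and tested with edgeR 4.0.16 (R 4.3.3, TMM, filterByExpr, adjusted p under 0.05), with DESeq2 1.42.0 as an alternative. The code was tested on simulated data. In simulated endothelial-like sums it recovered 5 of 67 genes changed by log2 1, 42 of 67 by log2 2 and 50 of 66 by log2 3. P-values rest on the spread between 2 control pools, drawn toward the trend of all genes, and that spread may be technical. Depth is 1787083 UMIs in LPS, 260921 in control 1 and 710631 in control 2 for endothelial-like cells; intervals (95%, exact) cover counting error only. Free RNA was estimated as UMIs per lymphoid-like cell times the number of endothelial-like cells. The members and lists were chosen with earlier results of these data known. From each list, up to 4 genes each way with the largest change, called and at a mean of at least 20 CPM, and S1pr1, were named; Klf2, Pard3, Marveld1 and the sub-cluster genes were named after their values were seen. Likeness used genes with at least 100 UMIs. Alternatives were other scaling, filters, gates, doublets, free RNA and each control left out. Coordinates are GENCODE's on GRCm38, and promoter sequences RefSeq's.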

Additional observations from a re-analysis of the deposited data

Results flagged for a closer look

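The unnamed barcodes of the LPS library, 3467 in number, were outside every comparison. In them 7 of the 10 members had an exact 95% interval wholly above that in the unnamed barcodes of control 2. How many of all genes meet the same rule was not counted, so this number shows nothing particular to the members. The levels, in CPM of all UMIs, were 58.0 for Cdh5, 43.4 for Esam, 109 for F11r, 54.2 for Jam2, 56.3 for Tjp1, 41.0 for Gja1 and 42.5 for Gja5. The 57 unnamed barcodes of control 2 had between 2.00 CPM (Jam2) and 8.99 CPM (Gja1) of the same genes. The barcodes are unlike: 56 of those 57 lay in a sub-cluster led by cell cycle genes with the lymphoid markers as its highest class. Nearly all of the LPS ones lay in 2 sub-clusters with 55.4% and 55.6% Gm42418 whose highest class was endothelial, below the naming limit. The 5 unnamed barcodes of control 1 had no UMI of any member in 6660 UMIs.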

How the results depend on the processing

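In endothelial-like cells 641 genes were higher and 632 lower, with 1 member each way. DESeq2 gave 151 and 162, with 0 members higher. The stricter cell filter (1000 UMIs, 10% mitochondrial) gave 379 and 320. Subtracting free RNA gave 289 and 28 (91.2% of calls higher; median log2 of all genes 0.71), with 0 members higher and 0 lower, in a fit that left 3990 genes. Total UMIs without scaling factors gave 516 and 717, 41.8% of calls higher, with a median of -0.14. No filter gave 2 members lower, leaving out possible doublets (2 or more UMIs of leukocyte, fibroblast or smooth muscle markers above the class background, which kept 71 LPS, 42 and 62 control cells) 2 higher, and the deeper sub-clusters 367 genes lower. DESeq2 gave 71 higher and 65 lower genes in fibroblast-like, 57 higher in phagocyte-like, and 124 higher and 13 lower in lymphoid-like cells. Esam, not called, turned positive with no filter (0.0596), the stricter filter (0.0682), doublets out (0.0797) and free RNA taken from the members alone (0.0097). Cldn5 was called in 11 of 12 tested alternatives (-1.96 to -1.46 over all 12) and Gja1 in 10 of 12 (1.54 to 5.04 over all 12). The cause of these shifts was not tested. The deeper sub-clusters, the first naming and free RNA from the members alone were chosen after seeing the data. Leaving out a control leaves 0 residual degrees of freedom and gives values with no test. No paired analysis was possible because the groups share only 1 replicate number, given in record order.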
